A study of Mus musculus with 32 samples.

Results

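The genes of mitochondrial protein import were followed in whole hearts of 32 mice. A gene was taken as a member if its symbol began with Timm or Tomm and a digit, the translocases of the inner and the outer membrane, or if it was Grpel1, Grpel2, Samm50, Mtx1, Mtx2, Pmpca, Pmpcb or Dnajc19. This gave 33 of the 19505 genes tested, each with 1 probe set on the array. The rule uses gene symbols and no measured value, though it was written with earlier results of these data known. Their identity was checked by Entrez number against RefSeq, where all 33 were found.

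Expression was measured with Clariom S mouse arrays, 1 heart per array and 4 hearts per group. The mice carried wild-type CHCHD10 (C10 WT) or 1 knockin allele of it, G58R or S59L, and OMA1 was missing on 1 allele (OMA1+/-) or on both (OMA1-/-) in every mouse, so that the controls too lacked 1 OMA1 allele. CHCHD10 is a small protein of the mitochondrial intermembrane space, and OMA1 is a stress-activated protease of the inner membrane. The C10 G58R cohort was 14 weeks old and the C10 S59L cohort 20 weeks old, each with C10 WT hearts of its own age. Both mutations are present in every tissue, the G58R allele was made by genome editing on C57Bl6J, and per the study few C10 G58R OMA1-/- pups lived to weaning, so that this group holds survivors. Each group had 2 males and 2 females except C10 WT OMA1-/- at 14 weeks, with 3 males and 1 female, and C10 G58R OMA1+/-, with 1 male and 3 females. Values are log2 expression, on which a difference of 1 is a 2-fold change, and the number of arrays limits the precision. No source says whether the 2 cohorts were normalized together, so levels are compared within a cohort.

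Nearly all mitochondrial proteins are made in the cytosol and carried in through a shared gate in the outer membrane, the TOM complex. From there the SAM complex inserts barrel-shaped proteins into the outer membrane, small TIM chaperones escort hydrophobic proteins across the intermembrane space, the TIM22 complex inserts carriers into the inner membrane, and the TIM23 complex passes proteins with a presequence on to the matrix. There a motor built on mitochondrial Hsp70, with J proteins and the nucleotide exchange factors of the GrpE family, pulls the chain in, and the processing peptidase cuts the presequence off. The heart depends on this route for the respiratory chain enzymes of its densely packed mitochondria, and mutations of DNAJC19 cause a cardiomyopathy in humans.

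With G58R 12.1% of the 33 import genes were called higher on the OMA1+/- and 66.7% on the OMA1-/- background, and with S59L 48.5% and 33.3%, while OMA1 loss in C10 WT hearts left no call among them. Among the 9913 genes with a mean above background the shares were 2.77%, 31.4%, 32.6% and 27.9%, so that S59L on OMA1-/- lay nearest to the share of other expressed genes. Grpel2, which encodes an exchange factor of the motor, was called in more comparisons than any other member, with log2 fold changes of 1.75 ± 0.28 for G58R and 2.59 ± 0.44 for S59L on the OMA1+/- background (SE from limma, n = 4 per group). Grpel1, the other exchange factor, was not called in any of the 11 comparisons. The one member called lower was Tomm7, a small subunit of the TOM complex, in 2 comparisons.

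Promoters of the members were read from RefSeq (GRCm38.p6), as 250 bases before to 50 bases after the annotated start. Promoter entries were matched for 29 of the 33 members (31 promoters, since Timm22 and Tomm34 had more than one), and Grpel2, Timm21, Tomm7 and Tomm40l had none that is shown. On both strands, the ATF4 response element was searched as TGATGNAA, the NRF1 site as GCGCA, any base and GCGC and the ERR site as TCAAGGTCA, where N is any base; ATF4 is the transcription factor of the integrated stress response, and NRF1 and the ERR receptors regulate many mitochondrial genes. TGATGNAA was in 0 of the 31 promoters, against 3.97% of all 32851 promoters of this length. The NRF1 letters were in 2 (6.45%, against 4.6% of all promoters), and TCAAGGTCA in 1 (3.23%, against 0.423%). The matches fell in Timm8b and Tomm20, which are shown with the 2 members outside the motor that were called higher in all comparisons of a mutation with C10 WT but S59L on OMA1-/-, Timm8a1 and Tomm40, neither of which held a match. The Tomm20 match (NRF1, chr8:126945872-126946171, minus strand) began at base -20 from the start. In Timm8b (chr9:50603651-50603950, plus strand) the NRF1 match began at base 19 after the start and the ERR match at base -96, and the matches did not overlap. Timm8a1 lies at chrX:134541621-134541920 (minus strand) and Tomm40 at chr7:19715380-19715679 (minus strand). Capitals mark the motif letters.
Tomm20: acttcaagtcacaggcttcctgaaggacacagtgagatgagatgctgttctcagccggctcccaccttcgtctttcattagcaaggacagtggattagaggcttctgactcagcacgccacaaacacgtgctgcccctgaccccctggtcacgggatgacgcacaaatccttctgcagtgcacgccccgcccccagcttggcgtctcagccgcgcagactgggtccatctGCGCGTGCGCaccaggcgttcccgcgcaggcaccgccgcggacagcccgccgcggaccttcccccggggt
Timm8b: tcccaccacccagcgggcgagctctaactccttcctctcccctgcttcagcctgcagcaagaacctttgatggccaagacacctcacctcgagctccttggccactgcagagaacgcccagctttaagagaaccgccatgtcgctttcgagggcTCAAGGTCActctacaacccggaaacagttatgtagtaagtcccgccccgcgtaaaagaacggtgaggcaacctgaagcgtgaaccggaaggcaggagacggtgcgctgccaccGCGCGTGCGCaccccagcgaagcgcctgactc
Timm8a1: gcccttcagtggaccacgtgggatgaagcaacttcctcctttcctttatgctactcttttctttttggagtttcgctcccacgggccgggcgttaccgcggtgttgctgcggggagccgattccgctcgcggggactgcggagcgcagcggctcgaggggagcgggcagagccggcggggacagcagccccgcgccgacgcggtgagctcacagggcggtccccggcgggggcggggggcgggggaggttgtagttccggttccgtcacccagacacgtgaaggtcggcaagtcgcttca
Tomm40: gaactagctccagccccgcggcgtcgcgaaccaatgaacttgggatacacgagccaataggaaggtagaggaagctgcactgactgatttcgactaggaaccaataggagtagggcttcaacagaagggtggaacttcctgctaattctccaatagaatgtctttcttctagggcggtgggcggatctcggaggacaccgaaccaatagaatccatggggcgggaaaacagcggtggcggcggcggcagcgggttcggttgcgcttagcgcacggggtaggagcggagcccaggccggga

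The labelled tissue was borne out by its markers, since the mean of 8 cardiomyocyte genes lay between 17.16 and 18.22 on all arrays. Other cell types moved with the groups. The mean of 6 adipocyte genes was 11.50, 12.06, 11.82 and 8.29 in C10 WT OMA1+/- hearts at 14 weeks, 7.44 to 8.80 in C10 G58R OMA1+/- hearts, 7.32 to 7.46 in C10 WT OMA1+/- hearts at 20 weeks and 6.52 to 12.35 in C10 S59L OMA1+/- hearts. The mean of 7 endothelial genes was 11.93 to 12.38 in the 20-week C10 WT hearts, against 10.58 to 11.56 with S59L, and that of 7 macrophage genes 8.48 to 9.05 and 9.90 to 12.16. In OMA1-/- hearts at 14 weeks the endothelial mean was 11.95 to 12.52 in C10 WT and 10.68 to 11.28 in C10 G58R, and the macrophage mean 8.1 to 9.32 and 10.06 to 10.98. The mean of 4 atrial genes ran from 8.14 to 18.88 over the 32 hearts. In whole tissue, fewer cells of a type and less RNA per cell cannot be told apart. The part of these shifts in the results was not tested except where values with the adipocyte or atrial mean as a covariate are given. Genes within the adipocyte mean, and within the atrial mean, went opposite ways. From C10 WT to C10 S59L OMA1+/- hearts at 20 weeks, mean Adipoq rose from 5.51 to 8.36, and Retn, Plin1 and Cidec rose too. Fabp4 fell from 18.05 to 16.5, and Lep stood at 4.94 and 4.92. In OMA1-/- hearts at 14 weeks, atrial Myl4, Myl7 and Sln were lower with G58R (Myl7 12.26 against 14.84) and Nppa higher (19.1 against 16.56). How far these covariates follow cell content alone was not tested.

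Receptors for odours and pheromones, which the heart should lack, set the background: 95 percent of the 1412 olfactory and vomeronasal receptor genes had a mean below a log2 value of 6.59. Of the members, 27 lay above it on all 32 arrays. Timm8a2, a copy of Timm8a1, lay below it on 32 arrays, Tomm20l and Tomm40l, relatives of Tomm20 and Tomm40, on 31 each, and Timm9, a small TIM chaperone, on 21. Grpel2 lay below it on 10 arrays, all of them C10 WT, and Timm13 on 2.

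The effect of the G58R mutation was read first on the OMA1+/- background. By limma with Benjamini-Hochberg adjustment over all 19505 genes, 4 of the 33 import genes rose (Grpel2, Timm8a1, Timm10 and Tomm40), 0 fell and 29 were not called, while 1.51% of all genes were called higher. The median log2 change was 0.52 over the members and -0.03 over all genes, with 29 of 33 above 0. At an unadjusted p under the threshold of 0.05 there were 21 members. On the OMA1-/- background 22 members rose, 1 fell and 10 were not called, beside 18.3% of all genes called higher and 15.3% lower, and the median was 0.86 against -0.10. Genes above background were called higher in 31.4% and lower in 15.6% (median 0.21). The 4 genes called on OMA1+/- were all among the 23. With quantile normalization the calls on OMA1-/- were 17 higher and 1 lower, beside 14.5% and 14.8% of all genes, and the member median was 0.65. Of the 23, 16 were kept with each array omitted and under every other setting. The 7 lost in at least 1 of them were Mtx1, Pmpca, Timm22, Timm44, Timm8b, Timm9 and Tomm40l. The changes of the 29 members without a call on OMA1+/- ran from -0.31 to 0.96.

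The effect of S59L on the OMA1+/- background was a rise of 16 members and a fall of 1, Tomm7, with 16 not called, beside 18.6% of all genes called higher and 17.9% lower. The median was 0.72 over the members, -0.15 over all genes and 0.27 over genes above background, of which 32.6% were called higher and 15% lower. On OMA1-/-, 11 members rose, 0 fell and 22 were not called, beside 15.8% of all genes called higher and 14% lower, and the median was 0.29 against -0.10. Of genes above background 27.9% were called higher and 13.4% lower (median 0.21), close to the 33.3% of the members. With quantile normalization of the same arrays the calls were 8 higher and 3 lower on OMA1+/- (all genes 14.1% higher and 15.7% lower) and 4 higher and 3 lower on OMA1-/- (all genes 12.1% and 13.7%). The 4 are 12.1% of the members, the same share as of all genes, and the member medians were 0.38 and 0.06. The members called lower with it were Grpel1, Timm21 and Tomm7 on OMA1+/- and Samm50, Timm21 and Tomm7 on OMA1-/-, so that the balance of calls depended on this step. The 11 calls on OMA1-/- became 6 when control replicate 1 or 2 was omitted and 4 without C10 S59L OMA1-/- replicate 4. Of these 11, 3 calls (Timm17b, Tomm20 and Tomm6) were kept with each array omitted and under every other setting, and 8 were lost in at least 1 of them. On OMA1+/- 8 of the 17 were kept throughout (Grpel2, Timm50, Timm8a1, Tomm20, Tomm34, Tomm40, Tomm5 and Tomm6).

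**Figure D1:**
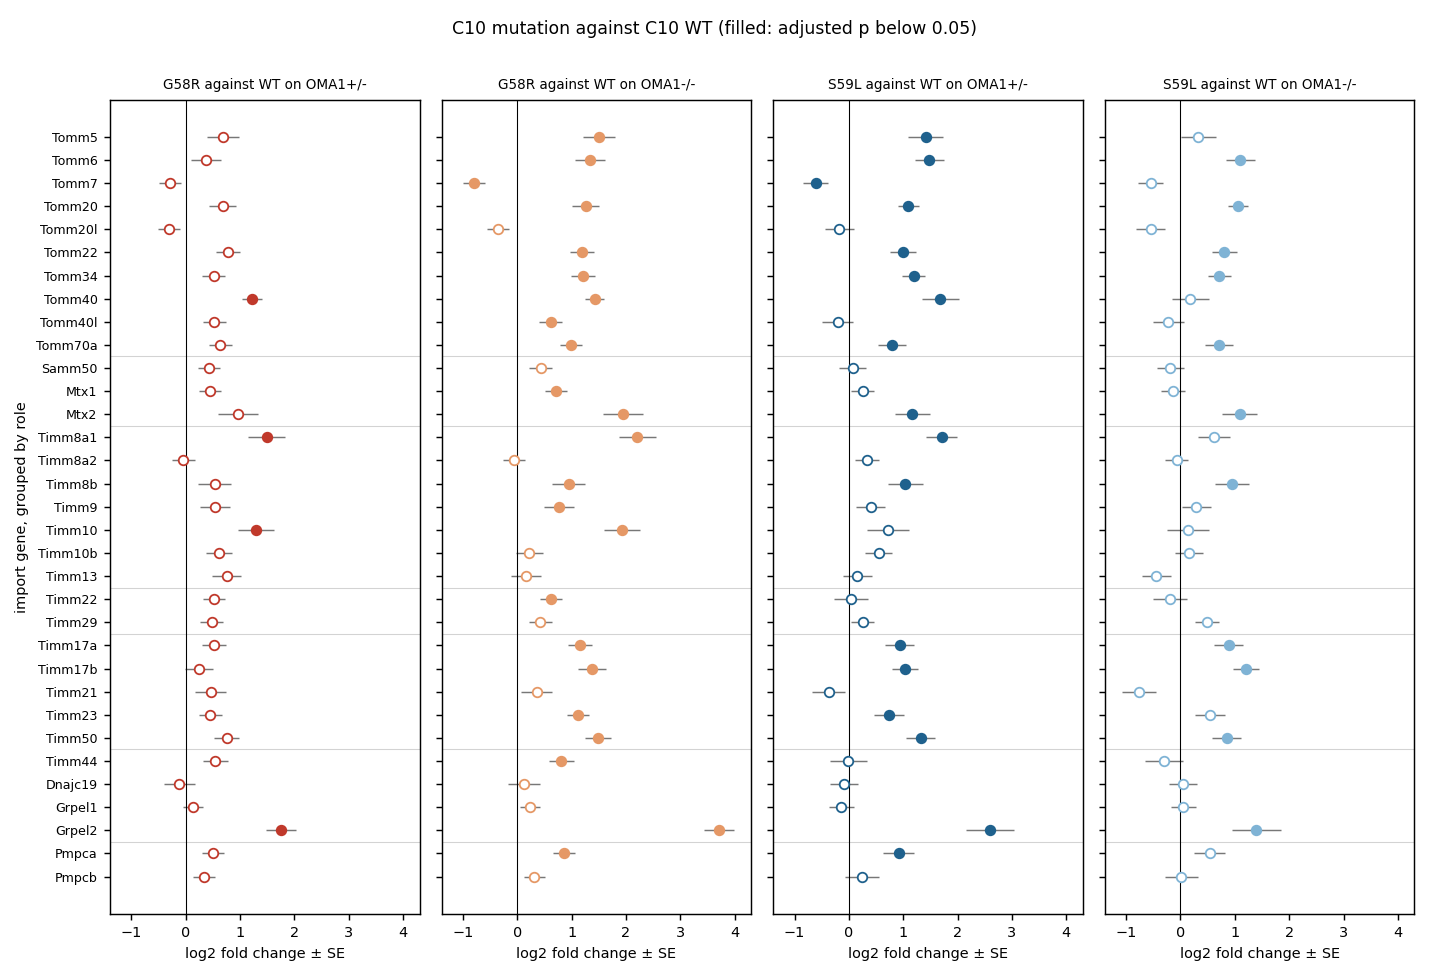
Log2 fold changes (x axis, ± SE from limma) of the 33 import genes (y axis, grouped by role from the outer membrane at the top to the processing peptidase at the bottom) for the C10 mutations against C10 WT on each OMA1 background, n = 4 hearts per group. Filled points passed an adjusted p of 0.05 (4, 23, 17 and 11 genes from left to right), Grpel2 is farthest to the right in each panel, and Tomm7 is filled on the left of 0 in the G58R OMA1-/- and S59L OMA1+/- panels.

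The 10 genes with Tomm symbols were grouped as the outer membrane translocase. Of these 1 rose with G58R on OMA1+/- and 8 rose and 1 fell on OMA1-/-. With S59L 7 rose and 1 fell on OMA1+/- and 5 rose on OMA1-/-. In the same order 1.51%, 18.3%, 18.6% and 15.8% of all genes were called higher. Of genes above background these shares were 2.77%, 31.4%, 32.6% and 27.9%. Tomm34, a cytosolic protein, is counted in the 8, the 7 and the 5. The 8 include Tomm40l, which lay below the background in both groups. Tomm40, the channel through which nearly all imported proteins pass, rose with both mutations on OMA1+/-. It read 9.40, 9.63, 9.52 and 9.21 in C10 WT OMA1+/- hearts at 14 weeks and 10.99, 10.54, 10.68 and 10.41 in C10 G58R OMA1+/- hearts. With OMA1 absent it read 9.25, 9.67, 9.72 and 9.52 in C10 WT hearts, against 11.07, 10.79, 11.10 and 10.88 in C10 G58R hearts. All 4 mutant hearts lay above all 4 controls on each background, and the log2 fold changes were 1.21 ± 0.18 (adjusted p = 0.00125) and 1.42 ± 0.18 (adjusted p = 1.47e-05). At 20 weeks Tomm40 read 8.64, 9.33, 9.16 and 9.16 in C10 WT OMA1+/- and 10.50, 10.63, 11.09 and 10.81 in C10 S59L OMA1+/- hearts, a rise of 1.68 ± 0.34 (adjusted p = 0.00109). The OMA1-/- hearts of that age read 8.74, 9.22, 10.19 and 9.78 without the mutation and 10.11, 9.13, 8.90 and 10.49 with S59L. There the groups overlapped, with C10 S59L replicates 1 and 4 high and 2 and 3 low, and the change was 0.18 ± 0.34 (adjusted p = 0.718).

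Tomm20 and Tomm22 encode receptors that bind presequences at the TOM gate. Tomm20, whose promoter is shown above, read 12.47, 12.46, 11.69 and 11.52 in C10 WT OMA1+/- and 12.67, 13.47, 12.28 and 12.42 in C10 G58R OMA1+/- hearts, and 11.76, 11.77, 11.73 and 11.96 in C10 WT OMA1-/- and 13.21, 13.12, 12.98 and 12.94 in C10 G58R OMA1-/- hearts. C10 WT OMA1+/- replicates 1 and 2 reached the level of the mutants, and the change was 0.68 ± 0.26 (adjusted p = 0.177) on OMA1+/-, against a rise of 1.26 ± 0.26 (adjusted p = 0.00109) on OMA1-/-, where the groups were apart. In the 20-week hearts Tomm20 read 11.78, 11.90, 11.74 and 11.86 in C10 WT OMA1+/- and 12.91, 12.87, 12.98 and 12.87 in C10 S59L OMA1+/-, and 11.60, 11.38, 11.75 and 11.62 in C10 WT OMA1-/- and 12.77, 12.24, 12.38 and 13.19 in C10 S59L OMA1-/-. It rose with S59L on both backgrounds, by 1.09 ± 0.19 (adjusted p = 0.000355) and 1.06 ± 0.19 (adjusted p = 0.000682), with no overlap in either. Tomm22 read 12.80, 12.64, 12.56 and 11.79 against 13.61, 13.34, 13.10 and 12.85 in C10 WT and C10 G58R hearts on OMA1+/-, and 11.87, 12.24, 11.997 and 12.31 against 13.26, 13.49, 13.20 and 13.19 on OMA1-/-. The G58R hearts were apart from the controls on both, at 0.78 ± 0.22 (adjusted p = 0.0792, not called) and 1.18 ± 0.22 (adjusted p = 0.000586). For S59L it read 11.29, 12.08, 11.94 and 12.04 against 13.002, 13.02, 12.75 and 12.54 on OMA1+/- and 11.79, 11.96, 12.10 and 12.02 against 12.95, 12.28, 12.51 and 13.38 on OMA1-/-, control first. All 4 mutants lay above the controls in each, with rises of 0.99 ± 0.24 (adjusted p = 0.00396) and 0.81 ± 0.24 (adjusted p = 0.0167).

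Tomm70a is the receptor for carriers and other proteins without a presequence, and Tomm34 is a cytosolic cochaperone of precursors. Tomm70a read 11.61, 11.32, 11.11 and 10.64 against 11.77, 12.15, 11.75 and 11.55 in C10 WT and C10 G58R hearts on OMA1+/-, and 10.85, 11.35, 11.16 and 11.16 against 12.12, 12.11, 11.98 and 12.27 on OMA1-/-. On OMA1+/- 3 of 4 mutants were above all controls (0.64 ± 0.21, adjusted p = 0.114), and on OMA1-/- all 4 were, with a rise of 0.99 ± 0.21 (adjusted p = 0.00135). In the S59L cohort it read 10.19, 10.72, 11.12 and 11.52 against 11.59, 11.68, 11.62 and 11.81 on OMA1+/- and 10.33, 10.62, 10.87 and 10.99 against 11.69, 10.87, 11.41 and 11.68 on OMA1-/-. The rises were 0.79 ± 0.26 (adjusted p = 0.0245) and 0.71 ± 0.26 (adjusted p = 0.0461), the second with C10 S59L replicate 2 inside the control range and lost when any 1 of 12 arrays was omitted (0.59 to 0.89). Tomm34 read 7.95, 8.78, 8.71 and 7.95 against 8.74, 8.56, 8.98 and 9.17 on OMA1+/- and 8.35, 8.34, 8.46 and 8.36 against 9.71, 9.61, 9.28 and 9.74 on OMA1-/- in the G58R cohort. The groups overlapped on OMA1+/- (0.52 ± 0.21, adjusted p = 0.219) and were apart on OMA1-/- (1.21 ± 0.21, adjusted p = 0.000361). At 20 weeks Tomm34 read 7.61, 8.36, 7.99 and 8.29 against 8.97, 9.48, 9.37 and 9.19 and 8.001, 7.83, 8.46 and 8.52 against 8.99, 8.75, 8.89 and 9.04. The mutants were above all controls on both backgrounds, by 1.19 ± 0.21 (adjusted p = 0.000356) and 0.71 ± 0.21 (adjusted p = 0.0173).

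The small TOM subunits Tomm5, Tomm6 and Tomm7, which sit around the channel, did not move as 1 group. Tomm5 read 13.34, 12.95, 12.39 and 11.73 in C10 WT OMA1+/- and 13.63, 13.80, 12.88 and 12.87 in C10 G58R OMA1+/- hearts, and 11.64, 12.02, 11.76 and 11.99 against 13.42, 13.59, 13.34 and 13.08 in the OMA1-/- hearts of the same genotypes. The change was 0.69 ± 0.29 (adjusted p = 0.225) on OMA1+/-, where C10 WT replicates 1 and 2 lay among the mutants, and 1.51 ± 0.29 (adjusted p = 0.000751) on OMA1-/-, with no overlap. For S59L it read 11.74, 11.89, 11.56 and 11.94 against 13.33, 13.33, 13.01 and 13.11 on OMA1+/- and 11.44, 11.80, 12.10 and 12.06 against 12.73, 11.96, 10.98 and 13.04 on OMA1-/-. It rose by 1.41 ± 0.32 (adjusted p = 0.00269) on OMA1+/- and stood at 0.33 ± 0.32 (adjusted p = 0.457) on OMA1-/-, where C10 S59L replicate 3 was the lowest heart of all. Tomm6 read 10.44, 10.81, 11.07 and 9.39 against 10.92, 10.82, 10.76 and 10.70 on OMA1+/- and 10.02, 10.03, 10.19 and 10.63 against 11.44, 11.89, 11.55 and 11.35 on OMA1-/- in the G58R cohort. It was not called on OMA1+/- (0.37 ± 0.28, adjusted p = 0.5; with the adipocyte covariate 1.09, adjusted p = 0.0309) and rose on OMA1-/- (1.34 ± 0.28, adjusted p = 0.00119). Tomm6 at 20 weeks read 8.82, 10.22, 9.82 and 9.98 against 11.64, 10.94, 11.25 and 10.91 and 10.15, 9.86, 9.98 and 10.07 against 10.95, 10.77, 11.28 and 11.47. All mutant hearts were above all controls on both backgrounds, with rises of 1.47 ± 0.27 (adjusted p = 0.000424) and 1.10 ± 0.27 (adjusted p = 0.0053).

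Tomm7 went the other way. In yeast Tom7 counters the action of the small subunits that hold the TOM complex together, and in mammals Tomm7 is also known for stabilizing PINK1 at the outer membrane. It read 12.46, 11.78, 12.49 and 12.80 in C10 WT OMA1+/- and 12.06, 12.28, 11.98 and 12.03 in C10 G58R OMA1+/- hearts, and 12.69, 12.82, 12.72 and 12.98 in C10 WT OMA1-/- and 11.92, 11.97, 11.82 and 12.34 in C10 G58R OMA1-/- hearts. The groups overlapped on OMA1+/- (log2 fold change -0.29 ± 0.20, adjusted p = 0.467), and all 4 mutants were below all controls on OMA1-/-, a fall at -0.79 ± 0.20 (adjusted p = 0.00602) that was kept with each array left out and under the 12 other settings tried. At 20 weeks it read 12.76, 12.76, 12.92 and 12.62 against 12.44, 12.30, 11.94 and 11.94 on OMA1+/- and 12.47, 12.28, 12.96 and 12.36 against 12.38, 11.98, 11.32 and 12.20 on OMA1-/-. The S59L hearts were below the controls on OMA1+/-, at -0.61 ± 0.23 (adjusted p = 0.0442). That call was lost with each of 9 arrays left out (-0.71 to -0.54 over all 16) and with the replicate number as a block (adjusted p = 0.0585). It was also lost with the atrial covariate and without the arrays above 8 in adipocyte markers. On OMA1-/- the change was -0.55 ± 0.23 (adjusted p = 0.0778). There Tomm7 was called lower with quantile normalization (-0.95), all 32 arrays in 1 fit (-0.55) and the adipocyte covariate (-0.75). The same held without the arrays above 9.5 in adipocyte markers (-0.76) or without C10 S59L replicate 1 (-0.68), and not under the other settings.

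In the sorting and assembly machinery, Mtx2 rose in 3 of the 4 comparisons and its partner Mtx1 in 1, while Samm50, the barrel at the core of the SAM complex, was called in none (changes of -0.18 to 0.43). Metaxins sit on the cytosolic face of that barrel. Mtx2 read 14.08, 13.59, 12.61 and 11.96 in C10 WT OMA1+/- and 14.21, 14.80, 13.44 and 13.65 in C10 G58R OMA1+/- hearts. With OMA1 absent it read 11.72, 12.22, 12.42 and 12.12 in C10 WT hearts, against 14.06, 14.15, 13.89 and 14.17 in C10 G58R hearts. C10 WT OMA1+/- hearts were spread widely, replicates 1 and 2 lying among the mutants, and the change was 0.96 ± 0.36 (adjusted p = 0.178) there against 1.95 ± 0.36 (adjusted p = 0.000549) on OMA1-/-, where the groups were apart. At 20 weeks it read 11.55, 12.14, 11.87 and 12.71 against 12.95, 13.48, 13.31 and 13.19 on OMA1+/- and 11.41, 11.31, 12.37 and 12.01 against 12.72, 12.09, 12.95 and 13.70 on OMA1-/-. The rises were 1.16 ± 0.32 (adjusted p = 0.0094) and 1.09 ± 0.32 (adjusted p = 0.0169), the second with C10 S59L replicate 2 inside the control range. Mtx1 rose with G58R on OMA1-/- (0.71 ± 0.21, adjusted p = 0.0132) and stood at 0.44 ± 0.21, 0.26 ± 0.21 and -0.14 ± 0.21 in the other comparisons of a mutation with C10 WT on OMA1+/- (G58R, then S59L) and on OMA1-/- (S59L).

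Of the 7 small TIM genes, 2 rose with G58R on OMA1+/- and 4 on OMA1-/-, and with S59L 2 rose on OMA1+/- and 1 on OMA1-/-. Genes above background were called higher in 2.77%, 31.4%, 32.6% and 27.9%, in the same order. Neither S59L count was a larger share than that. Timm8a1 encodes the mouse counterpart of the human protein lost in deafness-dystonia syndrome, a partner of Timm13 in a chaperone complex. It read 10.48, 10.39, 9.39 and 9.52 in C10 WT OMA1+/- and 11.41, 12.45, 11.13 and 10.73 in C10 G58R OMA1+/- hearts. With OMA1 absent it read 9.32, 9.53, 8.99 and 9.10 in C10 WT hearts, against 12.07, 11.06, 10.90 and 11.74 in C10 G58R hearts. The groups were apart on each background, with rises of 1.49 ± 0.35 (adjusted p = 0.0325) and 2.21 ± 0.35 (adjusted p = 0.000115). The first call needed replicates 3 and 4 of the controls and replicates 1, 2 and 3 of the mutants, and was lost on omitting any 1 of these (1.15 to 1.72 over omissions of each of the 16 arrays). At 20 weeks Timm8a1 read 9.14, 9.61, 9.18 and 9.27 against 11.09, 10.81, 10.98 and 11.14 on OMA1+/-, a rise of 1.71 ± 0.29 (adjusted p = 0.000254), and 9.23, 9.12, 9.44 and 8.78 against 10.37, 9.19, 8.97 and 10.51 on OMA1-/-. There replicates 1 and 4 of C10 S59L were above all controls, replicate 2 was among them and replicate 3 too (0.62 ± 0.29, adjusted p = 0.115).

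Timm8b, closely related to Timm8a1, read 10.10, 10.02, 9.56 and 8.66 against 10.22, 10.94, 9.44 and 9.87 in C10 WT and C10 G58R hearts on OMA1+/- and 8.80, 9.14, 9.10 and 9.09 against 9.85, 10.10, 9.90 and 10.05 on OMA1-/-. The groups overlapped on OMA1+/- (0.53 ± 0.30, adjusted p = 0.366) and were apart on OMA1-/- (0.94 ± 0.30, adjusted p = 0.0222). For S59L it read 8.12, 9.05, 8.84 and 8.76 against 9.77, 9.88, 9.81 and 9.45 on OMA1+/- and 8.40, 8.56, 9.27 and 8.76 against 10.05, 8.997, 9.08 and 10.65 on OMA1-/-. It rose by 1.04 ± 0.32 (adjusted p = 0.0175) and 0.95 ± 0.32 (adjusted p = 0.0327), the second with overlap and lost when any 1 of 5 arrays was omitted (0.63 to 1.18), with quantile normalization and with only the groups compared. Timm10, which forms with Timm9 the main chaperone of carrier precursors, read 10.90, 10.34, 9.59 and 10.06 against 11.21, 12.66, 11.39 and 10.81 on OMA1+/- and 10.12, 10.23, 9.88 and 9.80 against 12.12, 12.08, 11.45 and 12.08 on OMA1-/- in the G58R cohort. Replicate 2 was the highest of the C10 G58R OMA1+/- hearts, replicate 4 lay below 1 control, and the rise of 1.30 ± 0.33 (adjusted p = 0.0479) was lost when any 1 of 13 of the 16 arrays was omitted (0.91 to 1.53), whereas that of 1.93 ± 0.33 (adjusted p = 0.00025) on OMA1-/- was kept with each. Timm10 at 20 weeks read 10.13, 10.48, 9.98 and 10.49 against 10.75, 11.34, 10.77 and 11.10 and 9.30, 10.13, 10.73 and 9.93 against 10.74, 9.22, 9.36 and 11.33, and was not called (0.72 ± 0.39, adjusted p = 0.154, and 0.14 ± 0.39, adjusted p = 0.809). The mutants were above all controls on OMA1+/-, and on OMA1-/- replicates 2 and 3 were again low. Timm9, its partner, was called with G58R on OMA1-/- (adjusted p = 0.0393), where it lay below the background on all 4 control arrays, so that only a lower bound of 0.31 on the log2 scale can be given for the rise. It also lay below the background on 1 of the mutant arrays. The call was lost with 4 of 16 arrays left out (fitted change 0.47 to 0.99) and under 4 of 11 other settings. Timm10b and Timm13 were not called in any comparison. Timm8a2 lay below the background throughout.

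The carrier translocase had 1 call. Timm22, the channel that inserts carriers into the inner membrane, rose with G58R on OMA1-/- (0.62 ± 0.20, adjusted p = 0.025), a call lost with 4 of 16 arrays left out (0.51 to 0.72). It stood at 0.52 ± 0.20 on OMA1+/- (adjusted p = 0.183). Timm29, which links that channel to the TOM complex in human cells, was not called, with 0.48 ± 0.21, 0.42 ± 0.21, 0.25 ± 0.21 and 0.49 ± 0.21 for G58R and then S59L, OMA1+/- before OMA1-/- in each.

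Of the 5 presequence translocase genes, 0 were called with G58R on OMA1+/-, 4 rose on OMA1-/-, and with S59L 4 rose on OMA1+/- and 3 on OMA1-/-. Genes above background were called higher in 2.77%, 31.4%, 32.6% and 27.9%, in the same order. Timm23 is the channel of this complex, Timm17a and Timm17b are alternative subunits beside it, and Timm50 is the receptor that takes over presequences from the TOM complex. Timm50 read 10.04, 10.04, 9.67 and 9.19 in C10 WT OMA1+/- and 10.24, 10.86, 10.62 and 10.24 in C10 G58R OMA1+/- hearts, and 8.66, 9.49, 9.30 and 9.54 against 10.72, 10.86, 10.70 and 10.65 in their OMA1-/- counterparts. The mutants were above all controls on both, at 0.75 ± 0.23 (adjusted p = 0.102, not called) and 1.48 ± 0.23 (adjusted p = 0.000117). For S59L it read 8.67, 9.16, 9.04 and 9.52 against 10.19, 10.32, 10.56 and 10.60 on OMA1+/- and 8.51, 9.36, 9.55 and 9.38 against 10.21, 9.77, 9.56 and 10.64 on OMA1-/-. The groups were apart on each, with rises of 1.32 ± 0.27 (adjusted p = 0.00105) and 0.85 ± 0.27 (adjusted p = 0.0235). The second call was lost when any 1 of 3 arrays was omitted (0.62 to 1.01 over all 16) and under 4 of 12 other settings.

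Timm23 read 15.46, 15.21, 15.07 and 14.75 against 15.62, 16.01, 15.32 and 15.34 on OMA1+/- and 14.45, 14.99, 14.77 and 14.54 against 15.78, 16.11, 15.68 and 15.65 on OMA1-/- in the G58R cohort. The change was 0.45 ± 0.21 (adjusted p = 0.265) with overlap and 1.12 ± 0.21 (adjusted p = 0.000544) without. In the S59L cohort it read 13.71, 14.55, 14.43 and 14.68 against 15.08, 15.12, 15.07 and 15.05 and 13.96, 14.26, 15.05 and 14.52 against 15.04, 14.48, 14.73 and 15.69. The 4 C10 S59L OMA1+/- hearts lay within a narrow range above the controls, a rise of 0.74 ± 0.28 (adjusted p = 0.0448) that was lost when any 1 of 9 of the 16 arrays was omitted (0.53 to 0.85), and on OMA1-/- the change was 0.54 ± 0.28 (adjusted p = 0.151). Timm17a read 15.13, 15.04, 14.28 and 14.39 against 15.32, 15.61, 14.89 and 15.12 on OMA1+/- and 14.13, 14.34, 14.27 and 14.25 against 15.29, 15.52, 15.20 and 15.62 on OMA1-/- in the G58R cohort, and 13.94, 14.28, 14.26 and 14.36 against 14.89, 15.07, 15.44 and 15.18 and 14.13, 14.24, 14.10 and 13.92 against 14.89, 14.24, 14.88 and 15.94 in the S59L cohort. It was not called with G58R on OMA1+/- (0.52 ± 0.21, adjusted p = 0.212), and the other 3 groups of mutants were higher, by 1.15 ± 0.21 (adjusted p = 0.000515), 0.94 ± 0.26 (adjusted p = 0.011) and 0.89 ± 0.26 (adjusted p = 0.0183). In the last, C10 S59L replicate 2 lay inside the control range. That call was lost without C10 S59L replicate 4 (0.57) and with only the groups compared. Both S59L calls were lost with quantile normalization. Timm17b read 9.61, 10.40, 9.88 and 9.27 against 10.09, 10.53, 9.68 and 9.81 and 8.50, 9.31, 8.94 and 9.44 against 10.53, 10.51, 10.50 and 10.13 in the G58R cohort, OMA1+/- first. C10 WT hearts with 1 OMA1 allele were close to the mutants (0.24 ± 0.26, adjusted p = 0.662), and those without were below them all (1.37 ± 0.26, adjusted p = 0.000576). In the S59L cohort Timm17b read 8.69, 9.001, 8.97 and 9.10 against 9.89, 10.18, 9.80 and 10.02 and 8.98, 8.22, 9.37 and 8.46 against 9.69, 10.03, 9.78 and 10.37, and rose by 1.03 ± 0.23 (adjusted p = 0.00256) and 1.21 ± 0.23 (adjusted p = 0.00108) with no overlap. Timm21, which tethers the complex to the TOM side and to the respiratory chain, was not called (0.46 ± 0.29, 0.36 ± 0.29, -0.37 ± 0.31 and -0.76 ± 0.31 in the order used for Timm29), the last being the lowest change of the 33 members in that comparison. There it was called lower with quantile normalization and without the arrays above 8 or above 9.5 in adipocyte markers (-1.11 in each).

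The motor held both the largest rise and members that were not called. Grpel2 read 6.70, 7.24, 6.58 and 6.57 in C10 WT OMA1+/- and 8.37, 9.23, 8.63 and 7.88 in C10 G58R OMA1+/- hearts. With OMA1 absent it read 5.86, 6.61, 6.38 and 6.62 in C10 WT hearts, against 10.51, 9.76, 9.72 and 10.29 in C10 G58R hearts. The controls lay about the background value of 6.59 and all mutants well above it, and the rise was 1.75 ± 0.28 (adjusted p = 0.00198) on OMA1+/- and 3.70 ± 0.28 (adjusted p = 3.64e-08) on OMA1-/-. At 20 weeks Grpel2 read 6.24, 5.66, 6.64 and 6.28 in C10 WT OMA1+/- and 8.42, 8.34, 8.86 and 9.56 in C10 S59L OMA1+/- hearts, and 6.26, 6.56, 7.11 and 6.52 in C10 WT OMA1-/- and 7.85, 6.78, 7.73 and 9.69 in C10 S59L OMA1-/- hearts. It rose by 2.59 ± 0.44 (adjusted p = 0.00026) with no overlap and by 1.40 ± 0.44 (adjusted p = 0.0247) with C10 S59L replicate 2 among the controls and replicate 4 far above the rest. The last call was lost without that replicate 4 (0.84) or when control replicate 1, 2 or 4 was omitted. The control values lay near the background, and the sizes given are the fitted ones.

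Grpel1, the exchange factor that serves the motor in most tissues, stood at 0.13 ± 0.18, 0.24 ± 0.18, -0.14 ± 0.23 and 0.05 ± 0.23 (adjusted p = 0.754, 0.328, 0.644 and 0.892) for G58R and then S59L, OMA1+/- before OMA1-/-. Timm44, which anchors Hsp70 at the channel, rose with G58R on OMA1-/- (0.81 ± 0.23, adjusted p = 0.0113) and stood at 0.54 ± 0.23, -0.01 ± 0.34 and -0.30 ± 0.34 in the other comparisons of the kind. Dnajc19, a J protein of the inner membrane, was not called (-0.12 to 0.12 over these 4).

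For the processing peptidase, Pmpca, its substrate-binding subunit, was called in 2 comparisons and Pmpcb, its catalytic subunit, in none. Pmpca read 13.03, 13.46, 13.01 and 12.78 against 13.59, 13.79, 13.47 and 13.43 on OMA1+/- and 12.38, 13.08, 12.92 and 12.96 against 13.45, 14.11, 13.54 and 13.67 on OMA1-/- in the G58R cohort. The change was 0.50 ± 0.21 (adjusted p = 0.219) with 1 control among the mutants and 0.86 ± 0.21 (adjusted p = 0.00397) with none. In the S59L cohort it read 12.33, 13.07, 12.59 and 12.95 against 13.39, 14.07, 13.83 and 13.32 and 12.86, 12.31, 13.32 and 13.10 against 13.27, 12.74, 13.72 and 13.99. It rose by 0.92 ± 0.28 (adjusted p = 0.0182) on OMA1+/- and stood at 0.53 ± 0.28 (adjusted p = 0.165) on OMA1-/-. Pmpcb stood at 0.33 ± 0.20, 0.32 ± 0.20, 0.24 ± 0.31 and 0.02 ± 0.31 in the same order.

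**Figure D2:**
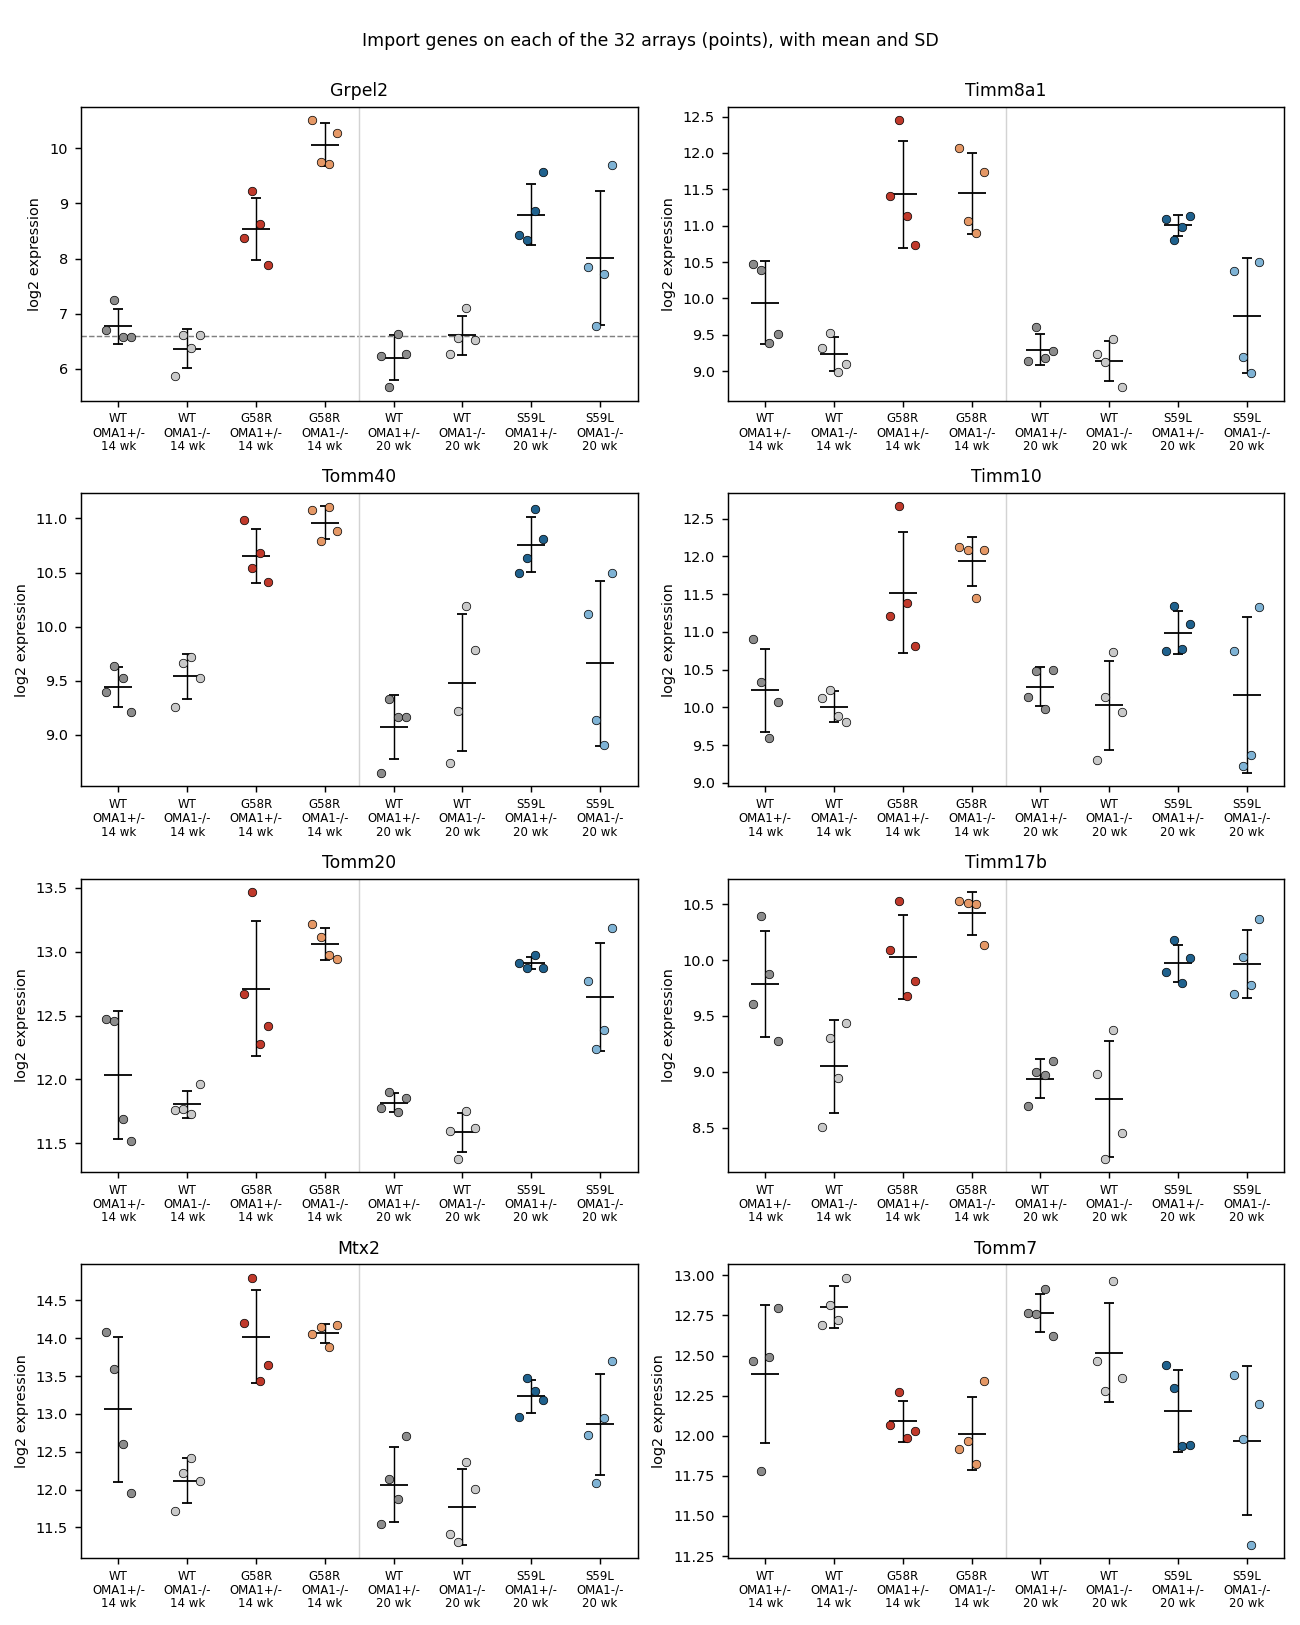
Log2 expression (y axis) of 8 import genes on each of the 32 arrays (points) in the 8 groups (x axis), with the mean (bar) and SD (whisker) of 4 hearts; the dashed line is the background value of 6.59. Grpel2 sits about the background in the 4 C10 WT groups and above it in the mutants, Tomm7 is lower in C10 G58R OMA1-/- and C10 S59L OMA1+/- hearts than in their controls, and C10 S59L OMA1-/- hearts split into high and low replicates for Tomm40, Timm8a1 and Timm10.

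Whether partners moved by different amounts was asked with 7 pairs, in the 4 comparisons of a mutation with C10 WT, by an exact two-sided permutation test of the difference of log2 values within each array (28 tests, the smallest p that 4 against 4 can give being 0.0286). The change of Grpel2 exceeded that of Grpel1 in each of the 4, with no overlap of the per-array differences, by 1.62 and 3.46 for G58R and 2.73 and 1.35 for S59L on OMA1+/- and OMA1-/- (p = 0.0286 in each, adjusted p = 0.0572 over the 28 exact tests). Mtx1 minus Mtx2 was -1.24 with G58R on OMA1-/- and -1.23 with S59L on OMA1-/- at that same smallest p. On OMA1+/- it was -0.91 with S59L (exact p = 0.0571) and -0.52 with G58R (exact p = 0.457). Timm8a1 minus Timm8b was 0.96 with G58R on OMA1+/- and 1.27 on OMA1-/- (each at the smallest p). With S59L it was 0.67 on OMA1+/- (exact p = 0.0571) and -0.33 on OMA1-/- (exact p = 0.2). Timm17a and Timm17b differed by -0.32 to 0.28 (exact p from 0.343 to 0.571), and Pmpca and Pmpcb by 0.16 to 0.68 (exact p from 0.0571 to 0.571). No pair reached an adjusted p under 0.05, for which 17 of the 28 tests would have had to reach the smallest p; 14 did. The pairs with Tomm20l and Tomm40l are not read, because those genes lay at the background.

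OMA1 loss itself changed few import genes. In C10 WT hearts 0 of 33 were called at 14 weeks, beside 0.0% of all genes (limma; 6 at an unadjusted p under 0.05), and 0 of 33 at 20 weeks, beside 0.00513% (0 at an unadjusted p under 0.05). Without C10 WT OMA1+/- replicate 4, 4 members were called lower at 14 weeks, Mtx2 (-1.31), Tomm5 (-1.04), Timm17b (-0.91) and Dnajc19 (-0.82). The share of all genes called in that fit is not given, so these calls are not read as particular to import genes. The 3 controls left had adipocyte means of 11.50 to 12.06, against 7.42 to 8.71 in the OMA1-/- hearts. With the adipocyte covariate and all arrays 0 were called, and the member median was 0.05 in place of -0.23. In C10 G58R hearts 1 rose, Grpel2, beside 3.25% of all genes called higher, with a change of 1.54 ± 0.28 (adjusted p = 0.00235) and all 4 OMA1-/- hearts above all 4 OMA1+/- hearts. Tomm34 (0.72 ± 0.21, adjusted p = 0.0668), Tomm6 (0.76 ± 0.28, adjusted p = 0.147), Grpel1 and Pmpcb were also above, and Timm21 below, all OMA1+/- hearts without a call. Of all genes, 6.5% lay wholly above and 4.47% wholly below in this comparison. Tomm34 and Tomm6 were called with the adipocyte covariate and without C10 WT OMA1+/- replicate 4.

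In C10 S59L hearts OMA1 loss gave 0 calls of 33 (limma; 5 at an unadjusted p under 0.05), beside 0.846% of all genes, and the changes lay below 0 for 30 of 33 members (median -0.25, against -0.00 for all genes). With the adipocyte covariate 21 of 33 lay below 0 (median -0.11), as did 21 without the arrays above 8 and 21 without those above 9.5 in adipocyte markers (median -0.14 in each). The largest were Timm8a1 at -1.24 ± 0.29 (adjusted p = 0.0534), Tomm40 at -1.10 ± 0.34 (adjusted p = 0.175) and Tomm5 at -1.02 ± 0.32 (adjusted p = 0.187). For Timm8a1 and Tomm40 all 4 OMA1-/- hearts lay below all 4 OMA1+/- hearts, as for 3.2% of all genes. Timm8a1 was called with quantile normalization, with only genes above the background tested and with limma's trend and robust options, and Tomm40 with all 32 arrays in 1 fit. Without C10 S59L OMA1-/- replicate 4, 3 members were called lower, Timm8a1, Tomm40 and Tomm5, and the share of all genes called in that fit is not given. In C10 S59L OMA1-/- hearts, replicates 2 and 3 were the low ones for these 3 genes, and their adipocyte means were 13.90 and 7.71, against 12.47 and 7.85 in replicates 1 and 4.

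**Figure D3:**
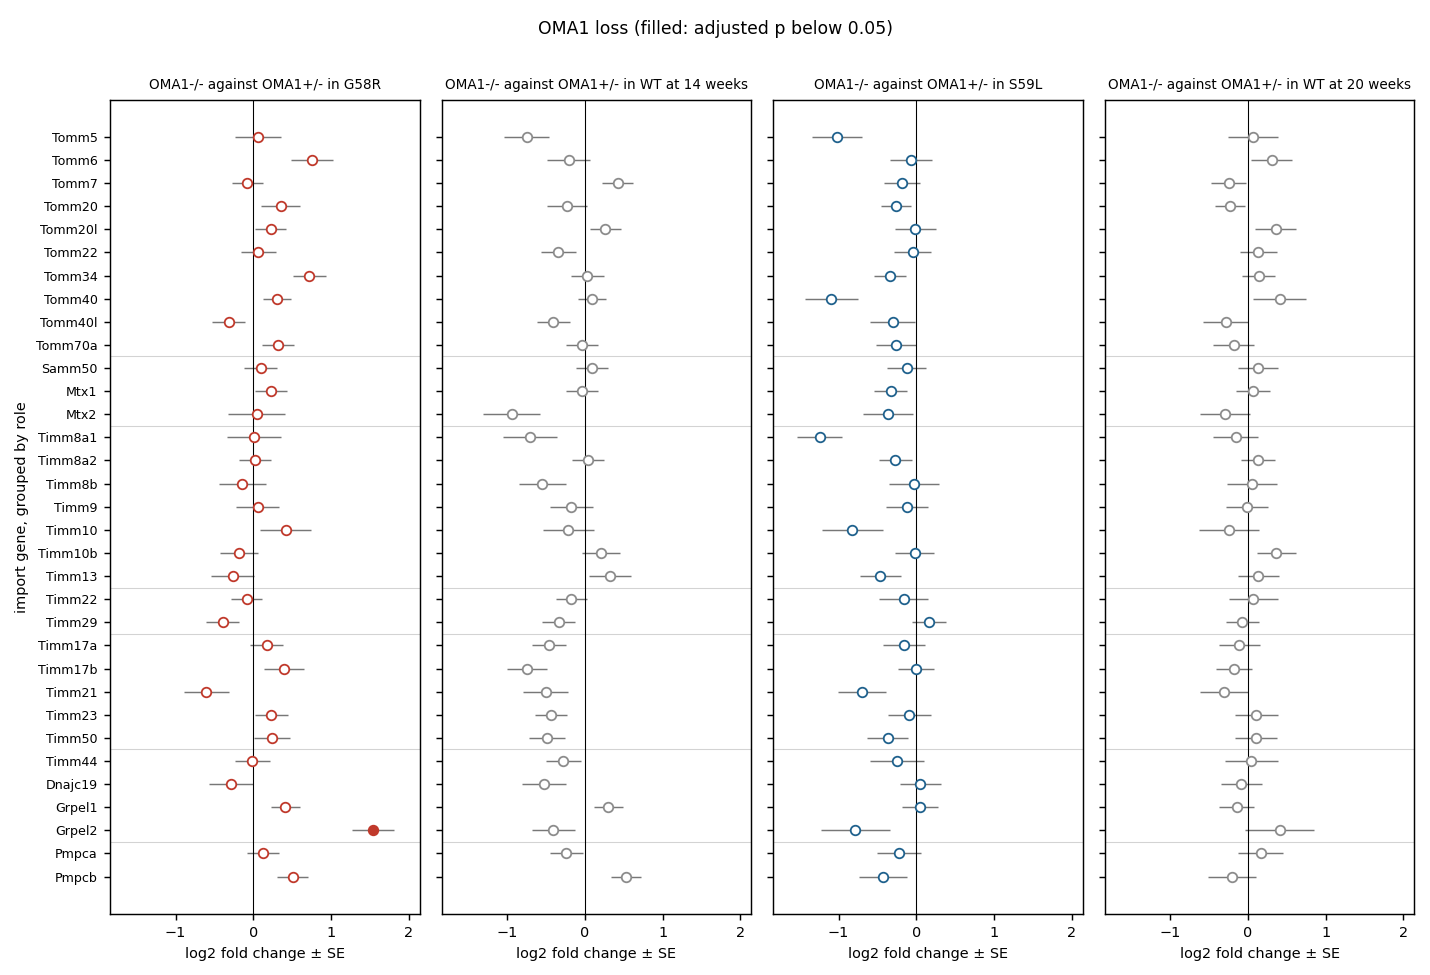
Log2 fold changes (x axis, ± SE from limma) of the 33 import genes (y axis, grouped by role) for OMA1-/- against OMA1+/- hearts of each C10 genotype, n = 4 hearts per group, with filled points at an adjusted p under 0.05. Grpel2 in C10 G58R hearts is the one filled point, and in C10 S59L hearts 30 of 33 points lie left of 0, a number that was 21 with the adipocyte covariate.

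The dependence of a mutation's effect on OMA1 was tested as an interaction. For G58R 1 member, Grpel2, was called, beside 2.24% of all genes called higher, and its G58R effect was larger without OMA1 by 1.95 ± 0.39 (adjusted p = 0.0112). That call was lost with the adipocyte covariate (1.45, adjusted p = 0.253), with which 0.22% of all genes were called higher, so that calls were lost over the whole array. Without the 7 arrays above 9.5 in adipocyte markers the Grpel2 difference was 1.60. That fit leaves 1 C10 WT OMA1+/- heart and takes its spread from the other groups. Timm17b was next by size, at 1.13 ± 0.36 (adjusted p = 0.0981). For S59L 0 of 33 were called, beside 0.0718% of all genes (limma; 3 at an unadjusted p under 0.05), with Tomm40 at -1.50 ± 0.48 (adjusted p = 0.35) and Grpel2 at -1.19 ± 0.63 (adjusted p = 0.661). The difference between the effects of G58R and S59L on OMA1+/-, in which the mutation and the age cannot be told apart, was called for 0 of 33 members, beside 8.33% of all genes (limma; 3 at an unadjusted p under 0.05). The members farthest from 0 in it were Tomm6 at -1.10 ± 0.39 (adjusted p = 0.0794) and Grpel2 at -0.84 ± 0.55 (adjusted p = 0.381). Tomm6 was called without C10 WT OMA1+/- replicate 4 of the 14-week cohort (-1.45) or without replicate 2 of the 20-week cohort (-1.27).

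The count for G58R on OMA1+/- changed with the handling of hearts rich in adipocyte markers, among them replicates 1, 2 and 3 of its controls. With the adipocyte mean as a covariate, 12 members were called higher (36.4%), beside 7.17% of all genes. In the main fit these shares were 12.1% and 1.51%, so that calls rose over the whole array too. Leaving out the 7 arrays above 9.5 in it keeps 1 control heart, whose spread is assumed to be that of the other groups. The count of that fit is therefore not given (member median 0.84). Among the 4 called members Grpel2 stood at 2.22 and 1.96 under these settings, Timm8a1 at 2.11 and 1.92 and Tomm40 at 1.45 and 1.44, while Timm10, at 1.55 and 1.45, was not called under the second. The 8 members called in addition with the covariate were Mtx2 (1.81), Tomm5 (1.42), Tomm22 (1.28), Timm8b (1.24), Tomm20 (1.23), Timm50 (1.18), Tomm6 (1.09) and Tomm70a (1.0048). In the other comparisons the counts with the covariate were 22 higher and 1 lower (G58R on OMA1-/-), 16 and 1 (S59L on OMA1+/-) and 13 and 1 (S59L on OMA1-/-). Of all genes, 19.3%, 20.2% and 17.1% were called higher with it and 16.4%, 20.1% and 14.5% lower.

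Further genes of the pathway were taken from a list of 21, of which 20 were measured: Hsp70 and its cochaperones, the disulfide relay of the intermembrane space, the insertase of the inner membrane, and proteases and chaperones that act after import. With G58R on OMA1+/- 1 of 20 rose, Hspd1, the Hsp60 chaperonin (0.99 ± 0.20, adjusted p = 0.0128), and on OMA1-/- 11 rose and 1 fell. The rises are 5% and 55%, beside 1.51% and 18.3% of all genes and 2.77% and 31.4% of genes above background. The fall is 5%, beside 15.3% of all genes. With S59L 9 of 20 rose on OMA1+/- and 7 on OMA1-/-, with 0 lower. These are 45% and 35%, beside 18.6% and 15.8% of all genes and 32.6% and 27.9% of genes above background. The 9 were Mtch2, an outer membrane insertase, at 2.51 ± 0.26 (adjusted p = 1.58e-06), Chchd4, the oxidoreductase of the disulfide relay, at 1.92 ± 0.41 (adjusted p = 0.0016), Pitrm1, which degrades cleaved presequences, at 1.53 ± 0.26, Xpnpep3, an aminopeptidase, at 1.40 ± 0.32, Oxa1l, the inner membrane insertase, at 1.28 ± 0.24, Gfer, which reoxidizes Chchd4, at 1.01 ± 0.27, Hspd1 at 0.88 ± 0.29, its partner Hspe1 at 0.85 ± 0.22 and Atad1, which extracts misplaced proteins, at 0.66 ± 0.22 (adjusted p at most 0.0266 for the last 7). Hspa9, the Hsp70 of the motor, stood at 0.77 ± 0.30 with G58R and -0.00 ± 0.32 with S59L on OMA1+/- (adjusted p = 0.193 and 0.997). With OMA1 loss in C10 S59L hearts 2 of the 20 fell, beside 0.625% of all genes and 1.03% of genes above background. They were Hspd1 at -1.50 ± 0.29 (limma, adjusted p = 0.0215) and Hspe1 at -1.11 ± 0.22 (adjusted p = 0.0271).

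The import genes were set beside the mitochondrial ribosome and complex I, the first enzyme of the respiratory chain, by counts and medians alone. Of 76 mitochondrial ribosomal proteins, 39 were called higher and 3 lower with G58R on OMA1-/- (median 0.69), and 22 and 9 with S59L on OMA1+/- (median 0.35). Of 37 complex I subunits, 3 were called higher and 14 lower with G58R on OMA1-/- (median -0.22), and 5 and 17 with S59L on OMA1+/- (median -0.46). With S59L on OMA1-/- the counts were 17 and 8 for the ribosome and 2 and 16 for complex I. In the same order of comparisons, 18.3%, 18.6% and 15.8% of all genes were called higher and 15.3%, 17.9% and 14% lower. Of genes above background, 31.4%, 32.6% and 27.9% were called higher and 15.6%, 15% and 13.4% lower. With S59L the 22 and 17 of 76 ribosomal genes called higher were smaller shares than those of genes above background. With G58R on OMA1+/-, 8 of 76 ribosomal genes were called higher and 0 lower (median 0.48, 68 above 0). Beside them stood 4 of 33 import genes higher and 0 lower (median 0.52, 29 above 0). Complex I had 0 calls there (median -0.04), and 1.51% of all genes were called higher and 0.472% lower. No test of a difference between lists was made.

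**Figure D4:**
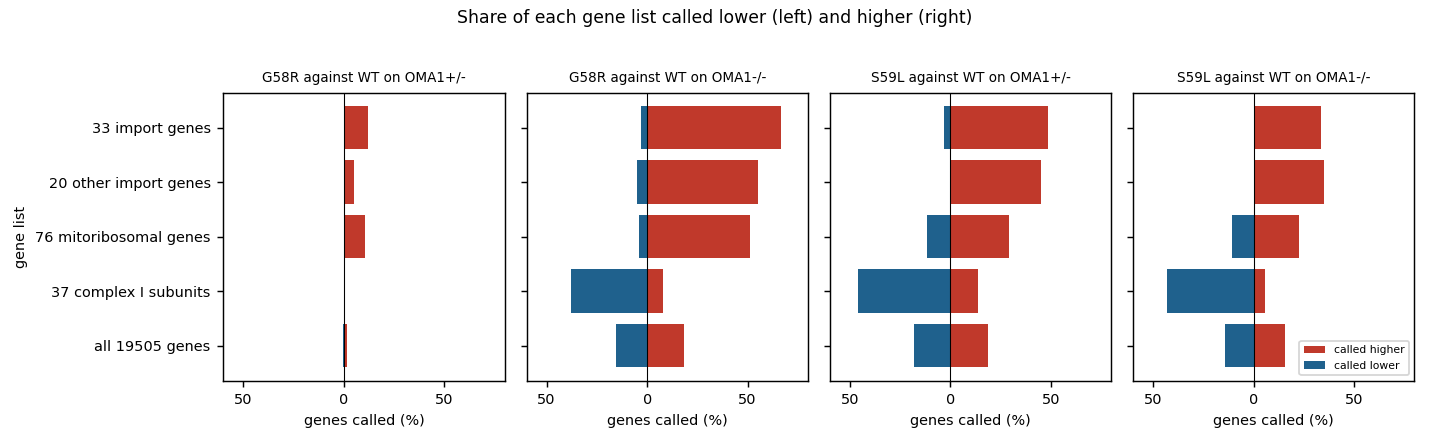
Share of genes called higher (red, right of 0) and lower (blue, left of 0) in percent of each list (x axis), for the 33 import genes, 20 further import genes, 76 mitochondrial ribosomal proteins, 37 complex I subunits and all 19505 genes (y axis), in the 4 comparisons of a C10 mutation with C10 WT. The import lists extend mostly to the right and complex I mostly to the left in the last 3 panels.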

How the data were processed

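RNA of 32 mouse hearts was hybridised to Clariom S arrays, 1 heart per array. The deposited values are log2 signals, which the authors made with SST-RMA in the Transcriptome Analysis Console at default settings. No source used here states whether the 2 cohorts were normalized together. Of 28846 probe sets, 6640 controls and 2634 without a gene symbol were left out, and the probe set with the highest mean was kept per gene, which gave 19505 genes. Groups came from the sample labels. Group means of each cohort of 16 arrays (all 32 for the comparison of the mutations) were fitted with limma 3.58.1 in R 4.3.3, and p-values were adjusted by Benjamini-Hochberg over all genes with a threshold of 0.05. The fit was tested on simulated data. Members and gene lists were chosen with earlier results of these data known. By the naming rule, array values are given for 18 members. Alternatives were quantile normalization, other choices of arrays and genes, sex, adipocyte markers or the replicate number in the model, limma's trend and robust options, the mean of probe sets and leaving out each array. The atrial covariate and the removal of 7 arrays above 9.5 in adipocyte markers were chosen after seeing the data. The labels name no cultures or litters beyond 1 animal per array, and precision is limited by 4 arrays per group.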

Additional observations from a re-analysis of the deposited data

Results flagged for a closer look

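In 144 sets of 4 hearts (18 members in 8 groups), 5 held a heart far from the other 3 by Dixon's criterion, which chance meets in about 1 in 20 groups. Timm10 read 11.45 in C10 G58R OMA1-/- replicate 3, against 12.08 to 12.12 in the others. Timm17b read 10.13 in C10 G58R OMA1-/- replicate 4, against 10.50 to 10.53. In C10 WT OMA1-/- hearts at 14 weeks, Timm8b read 8.80 in replicate 1 (others 9.09 to 9.14), Tomm20 11.96 in replicate 4 (11.73 to 11.77) and Tomm34 8.46 in replicate 3 (8.34 to 8.36). The G58R effect on Grpel2 differed between the OMA1 backgrounds by 1.95 on the log2 scale in limma's interaction term. With the adipocyte covariate it was 1.45, and 1.60 without the 7 arrays above 9.5 in adipocyte markers.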

How the results depend on the processing

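Of 57 calls of single members, 30 were kept with each array left out and under every other setting that gave a value for them. There were 12 such settings at most, and 11 for the calls of G58R on OMA1+/-. None reversed. Quantile normalization lost the most, 22. For G58R on OMA1+/- the main 4 calls became 2 with quantile normalization, 2 with only the groups compared fitted and 12 with the adipocyte covariate. Of all genes 1.51% were called higher in the main fit and 1.07%, 0.302% and 7.17% under these settings. The fit without the 7 arrays above 9.5 in those markers leaves 1 control heart, and its count is not given. For OMA1 loss in C10 G58R hearts the 1 call became 2 with only the groups compared, all 32 arrays, sex, only genes above the background, the atrial covariate or without the 7 arrays, and 3 with the adipocyte covariate. The 1 call of the G58R interaction became 0 with the adipocyte covariate, and 0 when the 7 arrays were omitted. For S59L the 17 calls on OMA1+/- became 11 and the 11 on OMA1-/- became 7 with quantile normalization, and the latter 5 with only the groups compared. For OMA1 loss in C10 S59L hearts 0 became 1 with quantile normalization, all 32 arrays, only genes above the background, and trend and robust options. The cause of these changes was not tested. With arrays left out in turn, calls ranged from 2 to 4 and 19 to 23 for G58R on OMA1+/- and OMA1-/-, 12 to 17 and 4 to 13 for S59L, 0 to 4 (14 weeks) and 0 to 0 (20 weeks) for OMA1 loss in C10 WT, 1 to 3 in C10 G58R and 0 to 3 in C10 S59L hearts, 1 to 3 and 0 to 0 for the interactions of G58R and S59L, 0 to 1 for the difference of the mutations, and 0 to 0 for the partner pairs, where 3 against 4 hearts cannot give a p under 0.0571, so that this says nothing of their stability. The G58R count on OMA1+/- was 2 when control replicate 4 or mutant replicate 1, 2 or 3 was omitted. Shares of all genes called with an array left out are not given. Leaving out the 13 arrays above 8 in adipocyte markers gave no value where C10 WT OMA1+/- hearts at 14 weeks were needed, since none was left. Over 32 pairs of same-numbered arrays, r of their deviations from the group means ran from -0.323 to 0.275, with 10 over 0.1. For S59L against C10 WT on OMA1+/- r was 0.04 to 0.182. In each group of that comparison replicates 1 and 2 were female and 3 and 4 male, so that the number follows sex there. With the replicate block the calls for S59L on OMA1+/- were 16. The other counts were 4, 23 and 11 for G58R on OMA1+/-, G58R on OMA1-/- and S59L on OMA1-/-. Grpel2 controls near the background limit the size of its changes.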
